A study of Mus musculus with 7 samples.

Results

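The glucocorticoid system of the arcuate nucleus was described through 32 genes, chosen by name for their part in that system: the receptors and the enzyme that supplies their ligand, a chaperone and 2 coactivators of the receptor, the genes of corticotropin-releasing hormone (Crh), and 22 genes that glucocorticoids are known to induce. A bead array probe carried the symbol of 28 of the 32 genes, with 39 probes among them, out of 16593 named genes and 25697 probes on the array. Nr3c2, Zbtb16, Arrdc3 and Cebpd had no probe of that name in the annotation used here. Of the 28 genes, 22 had a probe detected on enough arrays to be tested and 6 did not.

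The study measured RNA of the arcuate nucleus, the part of the basal hypothalamus that holds neurons controlling feeding, in male C57BL/6J mice of 40 weeks. One group was Dusp8-deficient, Dusp8 being a phosphatase of mitogen-activated protein kinases, and the other was made up of control littermates. Both groups had changed from chow at 8 to 10 weeks of age to a fat-rich diet, fat supplying 45% of the calories, and stayed on it for 30 weeks. The sources used here do not give the kind of Dusp8 allele, the hour of dissection or any hormone level in the blood. The 7 arrays carry the headings ko_108, ko_125, ko_148 and ko_168 (Dusp8-deficient) and wt_136, wt_145 and wt_177 (control).

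In mice the main glucocorticoid is corticosterone. It enters cells and binds the glucocorticoid receptor, Nr3c1, which waits in the cytoplasm in a complex with heat shock protein Hsp90 and a co-chaperone of the Fkbp family, then moves to the nucleus and binds DNA at glucocorticoid response elements. Crh from the paraventricular nucleus starts the hormonal chain that ends in the adrenal gland, and corticosterone restrains that chain. Many induced genes, such as Fkbp5, Tsc22d3 and Sgk1, are read as gauges of the hormone's action, although other signals also move them.

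The receptor binds as a dimer to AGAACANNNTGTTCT, a pair of half-sites (AGAACA, or TGTTCT on the other strand) with 3 bases between them. In the RefSeq promoters of build GRCm38.p6, which run from 250 bases before to 50 bases after a transcript start, 27 of the 32 genes had an entry, with 39 promoters among them. The full element, which reads the same on both strands, occurred in 1 of these 39 and in 3 of the 32851 promoters of the whole table, or 0.00913%. That 1 promoter belongs to Sgk1 (chr10:21993640-21993939, plus strand), where the element lies at positions -189 to -175 from the transcript start. A half-site, counted on both strands and including those inside a full element, occurred in 7 of the 39 promoters, against 19% of all promoters. By gene it was 5 of the 27, against 21.3% of all genes. The 7 include other promoters of Sgk1, which are not shown. A match is a description of these letters and no evidence that the receptor binds there. The Sgk1 promoter with the full element and the stretches around the half-sites of 3 further targets measured here are shown. These are genes whose values are followed below, and capitals mark the element or half-site.
Sgk1: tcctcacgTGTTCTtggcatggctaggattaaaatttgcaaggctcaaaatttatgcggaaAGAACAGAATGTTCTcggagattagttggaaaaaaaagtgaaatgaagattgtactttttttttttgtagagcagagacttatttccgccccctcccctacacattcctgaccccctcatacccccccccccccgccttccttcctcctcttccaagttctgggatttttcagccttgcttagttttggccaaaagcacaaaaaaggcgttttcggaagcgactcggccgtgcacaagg
Tsc22d3: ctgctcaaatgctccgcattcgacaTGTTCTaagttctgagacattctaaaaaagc
Sult1a1 upstream: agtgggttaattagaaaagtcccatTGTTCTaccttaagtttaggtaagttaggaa
Sult1a1 downstream: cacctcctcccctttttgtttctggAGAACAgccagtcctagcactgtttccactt
Bcl6: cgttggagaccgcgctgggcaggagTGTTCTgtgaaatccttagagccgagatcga
The last 4 lie on the minus strand of their chromosomes, at chrX:140600677-140600732, chr7:126676600-126676655, chr7:126676422-126676477 and chr16:23981377-23981432. Both Sult1a1 half-sites lie before the transcript start, at positions -212 to -207 and -34 to -29. Their labels, upstream and downstream, give only their order relative to each other.

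Each array detected between 12295 and 13976 of the 25697 probes. Dusp8 was read first as a check of the labels: the highest deposited value among Dusp8-deficient mice, 104 units, was far under the lowest control value, 540 units, with a log2 difference of -2.52 (SE 0.23, limma, adjusted p = 0.00963). With 1 of ko_148, ko_168, wt_136, wt_145 or wt_177 left out, the adjusted p was 0.0557 to 0.119 (limma). Array ko_108 stood apart in its markers. The summed signal of 5 arcuate markers was 389 units there against 2185 to 3135 in the other 6 arrays, and the summed signal of 9 oligodendrocyte markers was 5096 units against 1759 to 3103. All 8 tested oligodendrocyte markers were highest in ko_108, so the main differences are given below with and without that array. In bulk tissue, fewer cells of a type and less RNA per cell cannot be told apart.

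No gene of the glucocorticoid system passed the test between Dusp8-deficient and control mice. The test covered 14067 probes, of which 0.00711% (1 probe, Dusp8) had an adjusted p below 0.05 in limma, and 0 of the 27 tested probes of this system were among them, each with an adjusted p of at least 0.996. At an unadjusted p below 0.05 there was 1 of the 27 probes, a dim probe of Ncoa2 that was lower in Dusp8-deficient mice, where the share over all probes was 4.81% in either direction and 2.5% lower. No probe of the system differed by more than 0.5 log2 units either way, against 9.48% of all probes. That count depended on the setting. Without normexp, which spreads dim signals, it was 11 of 27 against 35.7% of all probes. There Cdkn1a read -1.68 and the dim Ncoa2 probe -1.19. With 1 array left out it was 2 (without ko_125) to 5 (without wt_177) of 27, and 3 without ko_108, against 10.5% to 15.1%. Array weights gave 4 of 27 against 8.62%, and replicates 1 to 3 of the authors' processed values 5 against 16.1%. The authors' processed values of all samples gave 0 of 27 against 13%. An offset of 50, median scaling and cyclic loess gave 0 of 27 against 1.79%, 9.23% and 9.13%. In the main setting the log2 differences of the 27 probes, taken throughout as Dusp8-deficient minus control, ran from -0.45 to 0.47. The half-width of the 95% interval had a median of 0.62 log2 units, and 18 of the 27 lay within 1 log2 unit (2-fold) either way, against 76.8% of all probes. The intervals of the other 9 reached beyond 2-fold in at least 1 direction.

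The receptor gene Nr3c1, on chromosome 18, had nearly the same mean in both groups. Its normalised log2 signal was 5.36, 5.72, 6.33 and 5.70 in ko_108, ko_125, ko_148 and ko_168, and 6.02, 5.95 and 5.19 in wt_136, wt_145 and wt_177. The highest value was a Dusp8-deficient array and the lowest a control, and the groups overlapped. The difference was 0.05 log2 units (SE 0.29, 95% interval -0.59 to 0.70), 0.19 without ko_108, and between -0.21 and 0.20 with any 1 array left out.

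Hsd11b1 encodes the enzyme that regenerates active glucocorticoid from its inert form inside cells. Its brightest probe read 5.11, 5.49, 5.13 and 5.44 in the 4 Dusp8-deficient arrays and 5.70, 6.39 and 5.10 in the controls. The controls wt_136 and wt_145 lay above all Dusp8-deficient arrays, while wt_177 lay below them. The log2 difference was -0.44 (SE 0.29, 95% interval -1.10 to 0.22), and -0.38 without ko_108, -0.11 without wt_145 and -0.75 without wt_177. A second probe read 4.86, 5.30, 4.93 and 5.33 against 5.65, 5.97 and 4.89, a difference of -0.40 (SE 0.28). The next read 4.80, 4.93, 4.85 and 5.11 against 5.47, 5.74 and 4.60, a difference of -0.35 (SE 0.28), while no array gave a signal above background for the fourth. In all 3 the order of the controls was the same, with wt_145 highest and wt_177 lowest. The 3 tested probes followed each other over the arrays: the brightest correlated with the others at r = 0.97 (rho = 0.93) and r = 0.94 (rho = 0.96). Both Pearson values had an exact permutation p of 0.00139, or 0.00347 adjusted over the 5 probe pairs examined, and the Spearman p was 0.00675 and 0.00278 (exact permutation, adjusted 0.0169 and 0.0139). Without the 2 arrays farthest from the median, wt_145 and wt_177, r was 0.99 and 0.89.

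Fkbp4, the co-chaperone that helps carry the bound receptor to the nucleus, varied little between Dusp8-deficient mice. It read 8.07, 8.20, 8.14 and 7.99 in these and 8.55, 7.91 and 8.41 in the controls. The groups overlapped through wt_145, and the log2 difference was -0.19 (SE 0.21, 95% interval -0.66 to 0.28), or -0.18 without ko_108.

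The coactivators Ncoa1 and Ncoa2, which bind the active receptor and help start transcription, were read by 1 and 2 tested probes. Ncoa1 read 5.20, 5.92, 6.44 and 6.16 in the Dusp8-deficient arrays and 6.17, 6.22 and 6.02 in the controls. Its low value was in ko_108, and the log2 difference of -0.21 (SE 0.29) became 0.04 without it. The brighter Ncoa2 probe read 6.44, 5.90, 6.49 and 4.96 against 5.84, 6.28 and 6.87. Here ko_168 was far below the rest, and the difference was -0.38 (SE 0.39, 95% interval -1.25 to 0.49), or -0.55 without ko_108, -0.06 without ko_168 and -0.11 without wt_177.

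The dimmer Ncoa2 probe was 1 of 2 tested probes of this system whose groups did not overlap, where 5.57% of all tested probes had that property. It read 4.45, 4.79, 4.71 and 4.47 in the Dusp8-deficient arrays and 4.98, 4.98 and 5.19 in the controls. Close to background, it gave 4 to 16 units among Dusp8-deficient mice and 15 to 18 units among controls, and it was detected in 2 of 4 and 3 of 3 arrays. The log2 difference was -0.45 (SE 0.19, 95% interval -0.88 to -0.02), and -0.39 without ko_108. The unadjusted p was 0.0435 and the adjusted p 0.996 (limma). Both probes carry the same symbol, and over the 7 arrays they correlated at r = 0.49 (exact permutation p = 0.264, adjusted 0.441) and rho = 0.21 (exact permutation p = 0.662, adjusted 0.662), while without ko_168 and wt_177, the arrays farthest from the median, r was -0.60.

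**Figure D1:**
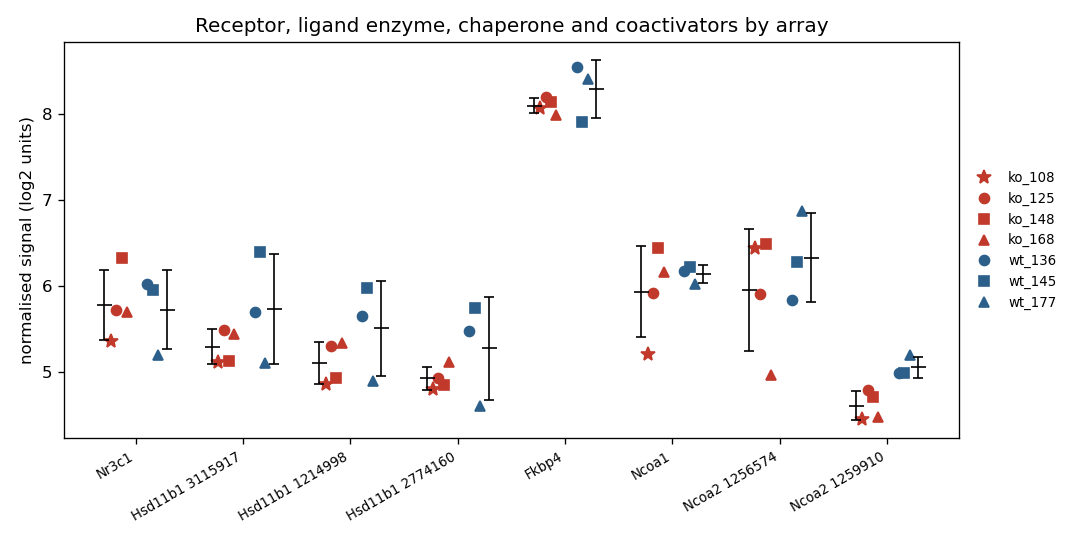
Normalised signal (log2 units) on each array for the 8 tested probes of Nr3c1, Hsd11b1, Fkbp4, Ncoa1 and Ncoa2, with red points for the 4 Dusp8-deficient mice, blue points for the 3 controls, and black bars for the group mean ± SD; numbers after a symbol name the probe, and levels of different probes are not comparable. The groups overlap for 7 of the 8 probes, and for the dimmer Ncoa2 probe the control values of 4.98 to 5.19 lie above the Dusp8-deficient values of 4.45 to 4.79.

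None of the 4 Crh genes had a probe that could be tested. Crh itself, the releasing hormone, had a deposited signal of -7, -8, -7 and -7 units in the Dusp8-deficient arrays and -6 units in each control, and its probe was not above background on any of them. Crhr1, the receptor through which Crh acts on the pituitary, was read by 3 probes. The first, at 4, 10, 3 and 5 units in the Dusp8-deficient and 8, 0 and 0 units in the control arrays, was detected in ko_125 and wt_136. The next, at -3, 0, -3 and -2 against -2, 12 and 0 units, was detected in wt_145 alone, and the last, at -4 to 1 units, on no array. The second receptor gene, Crhr2, was detected only in wt_177, at 15 units against -1 to 6 units elsewhere. Crhbp, the protein that binds and neutralises Crh, was detected in ko_108 (9 units) and wt_177 (10 units) and ran from -2 to 4 units in the other arrays. No probe of these genes was detected in more than 2 arrays, so a difference between the groups was not detectable here.

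Crh neurons lie mainly in the paraventricular nucleus, a different nucleus from the one dissected. Markers of that nucleus and the supraoptic nucleus were measured beside Crh. Avp (vasopressin) was detected on all arrays and its log2 signal was 8.61, 9.39, 11.20 and 5.96 in the Dusp8-deficient arrays and 10.43, 7.23 and 10.36 in the controls. Oxt (oxytocin) was also detected on all arrays, and Sim1, a transcription factor of the paraventricular nucleus, in 2 of 4 and 1 of 3. The summed signal of the 4 markers (Oxt, Avp, Sim1 and Trh) lay between 115 and 2550 units in Dusp8-deficient mice, overlapping the 212 to 1561 units of the controls. Avp dominated the high sums, with 2480 of the 2550 units in ko_148 and 1425 of the 1561 units in wt_136. Trh, detected in 3 of 4 and 3 of 3 arrays, did not follow Avp. It was highest in ko_108, at 173 units, and lowest in ko_148, at 5 units, where Avp was highest. Markers of the pituitary summed to 1 to 290 units in the Dusp8-deficient and 9 to 98 units in the control arrays. The sum of 1 unit was in ko_108, and the other Dusp8-deficient arrays, at 193 to 290 units, lay above all controls. Of the 6 markers, 3 were detected on no array. Tshb was detected in 3 of 4 and 0 of 3 arrays, and Cga in 3 of 4 and 3 of 3. Gh was detected in 1 of 4 and 0 of 3. In ko_125 Tshb and Cga gave 83 and 204 of the 290 units, so the high sums describe these genes. Which cells they came from was not tested. The Crh probe stayed below detection also in the arrays with the highest Avp, and the part of dissection in this was not tested.

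**Figure D2:**
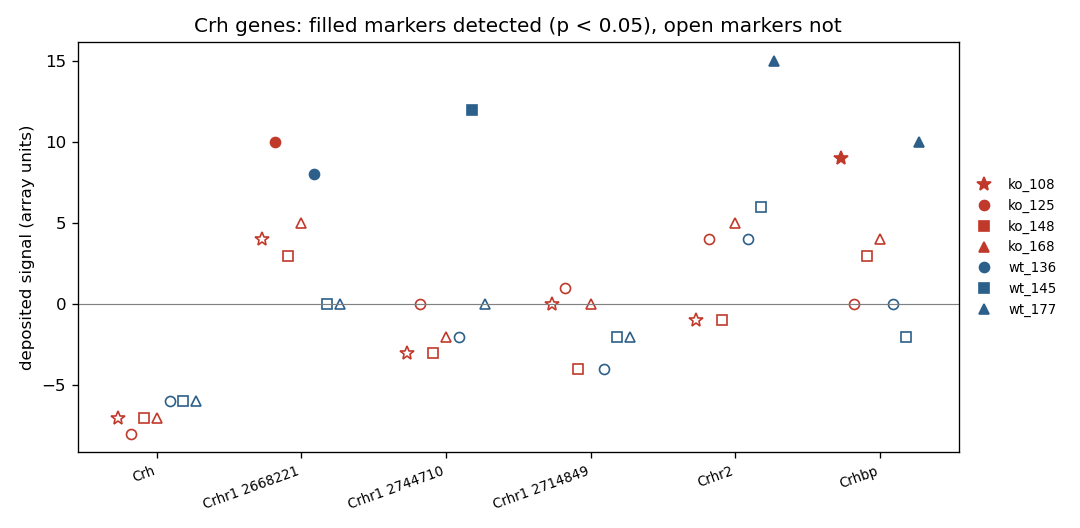
Deposited, background-subtracted signal (array units, not normalised) of the 6 probes of Crh, Crhr1, Crhr2 and Crhbp on each of the 7 arrays, red for Dusp8-deficient and blue for control mice; filled markers have a detection p below 0.05 and open markers do not. Of all values, the Crh probe lies lowest at -8 to -6 units, and the highest is Crhr2 in wt_177 at 15 units.

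Of the 19 target genes with a probe, 17 were tested, and their differences lay on both sides of 0: 8 were higher and 9 lower in Dusp8-deficient mice and none passed, where 49.7% of all tested probes were higher. The median log2 difference of the 17 was -0.001, against -0.002 over all tested probes, and it was -0.08 without ko_108. Lcn2 and Nfkbia were each detected in ko_108 alone, at 8 and 7 units, and were not tested.

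The 3 genes most used as gauges of the hormone gave small and imprecise differences. Fkbp5, a co-chaperone that lowers the receptor's affinity for its hormone, read 5.79, 6.46, 5.44 and 4.66 in the Dusp8-deficient arrays and 5.12, 4.46 and 6.02 in the controls. Both groups held high and low animals. The log2 difference was 0.39 (SE 0.45, 95% interval -0.62 to 1.40), and it was 0.32 without ko_108 and ranged from 0.02 (without wt_145) to 0.80 (without wt_177) with 1 array left out. Detection failed only in wt_145, at 5 units.

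Tsc22d3 (Gilz, a leucine zipper protein that mediates anti-inflammatory effects) was read by 2 probes that the annotation assigns to different RefSeq transcripts, and they pointed in opposite directions. The brighter probe read 9.61, 9.24, 8.70 and 9.06 in the Dusp8-deficient arrays and 8.91, 8.51 and 8.89 in the controls. Of these, ko_108, ko_125 and ko_168 lay above all controls and ko_148 did not, and the log2 difference was 0.38 (SE 0.25, 95% interval -0.17 to 0.94), or 0.23 without ko_108. The dimmer probe read 6.66, 5.20, 5.56 and 5.57 against 6.54, 5.44 and 6.46, a difference of -0.40 (SE 0.38), and -0.70 without ko_108. Between the 2 probes r was 0.37 (exact permutation p = 0.414, adjusted 0.450) and rho was 0.36 (exact permutation p = 0.444, adjusted 0.662) over the 7 arrays, and without ko_108 and wt_145, the arrays farthest from the median, r was -0.44.

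Sgk1, a kinase that regulates ion channels and the gene whose promoter holds the full element shown above, had a difference that hung on 1 array. It read 8.32 in ko_108, 7.04 in ko_125, 6.54 in ko_148 and 6.87 in ko_168, against 7.0, 6.87 and 6.85 in the controls. Apart from ko_108, the arrays lay within 6.54 to 7.04. The log2 difference of 0.28 (SE 0.37, 95% interval -0.55 to 1.12) became -0.09 without ko_108. In the same array the oligodendrocyte markers averaged 1.13 log2 units more than their mean over all arrays, against -0.53 to 0.004 elsewhere, with astrocyte markers at 0.38 against -0.21 to 0.10, and the part of those cells in the Sgk1 value was not tested.

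**Figure D3:**
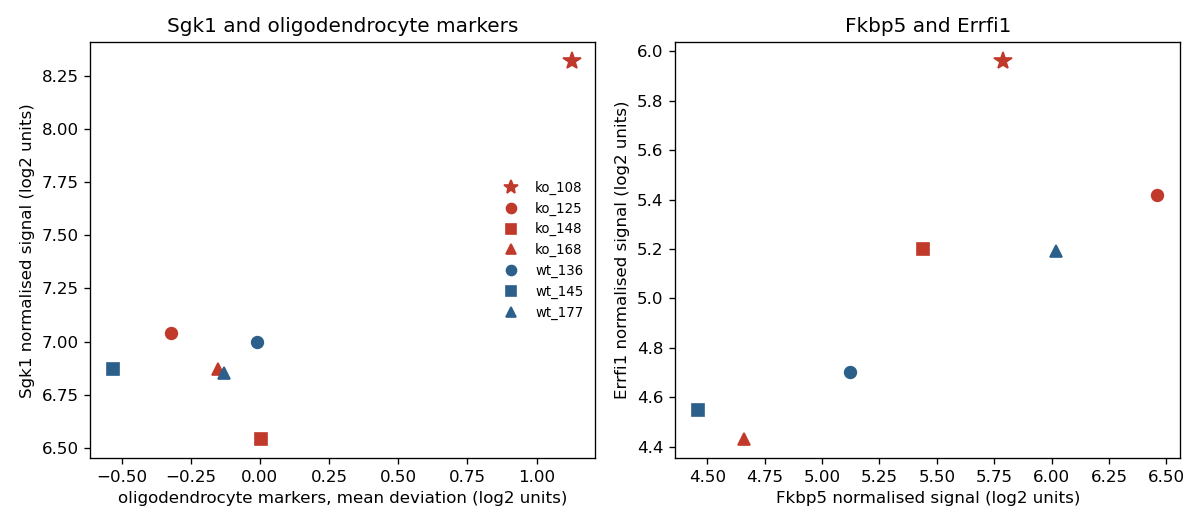
Left, normalised Sgk1 signal (log2 units) against the mean deviation of 8 oligodendrocyte markers from the mean of the 7 arrays; right, normalised Errfi1 against Fkbp5 signal (log2 units); each point is 1 array, red for Dusp8-deficient and blue for control. In the left panel ko_108 stands alone at 8.32 and 1.13 while the other arrays stay between 6.54 and 7.04, and in the right panel arrays of both groups spread along both axes.

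Among the other targets, the 6 of smallest p are given in full. Sult1a1, a sulfotransferase of phenols, read 5.47, 6.08, 6.13 and 5.57 in the Dusp8-deficient arrays and 5.90, 5.40 and 4.71 in the controls. Its log2 difference of 0.47 (SE 0.31, 95% interval -0.21 to 1.16) was the highest among the targets and was 0.16 without wt_177, the lowest array, and 0.59 without ko_108. Ddit4 (Redd1), an inhibitor of mTORC1, read 7.68, 7.75, 8.25 and 7.13 against 8.25, 7.75 and 8.33. Its difference of -0.41 (SE 0.28, 95% interval -1.04 to 0.22) was the lowest among the target genes and -0.40 without ko_108, and the groups overlapped.

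Klf9, a transcription factor of the Krüppel-like family, read 8.13, 8.09, 7.87 and 8.11 in the Dusp8-deficient arrays and 7.97, 7.51 and 7.84 in the controls. Here 3 of the 4 Dusp8-deficient values lay above all controls, and the log2 difference was 0.27 (SE 0.20, 95% interval -0.17 to 0.71), or 0.24 without ko_108. Errfi1 (Mig-6), a feedback inhibitor of the epidermal growth factor receptor, read 5.96, 5.42, 5.20 and 4.43 against 4.70, 4.55 and 5.19. The difference of 0.44 (SE 0.34) was 0.20 without ko_108, and the probe was detected in 3 of 4 and 2 of 3 arrays.

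The cell cycle inhibitor Cdkn1a (p21) read 4.98, 4.33, 4.35 and 4.30 in the Dusp8-deficient arrays, ko_108 being the high one, against 4.39, 4.92 and 5.10 in the controls. It was detected only in ko_108, wt_145 and wt_177, and the log2 difference was -0.31 (SE 0.26), or -0.47 without ko_108. Its other probes were detected in wt_177 alone and on no array. The metallothionein Mt2, a metal-binding protein, read 8.80, 8.09, 8.20 and 8.62 in the Dusp8-deficient arrays and 8.43, 7.99 and 7.98 in the controls, a difference of 0.29 (SE 0.24), or 0.17 without ko_108, with overlapping groups. Its neighbour on chromosome 8, Mt1, read 11.03 to 11.52 in the Dusp8-deficient arrays and 11.13 to 11.52 in the controls, with a difference of -0.002 (SE 0.21, 95% interval -0.46 to 0.46).

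The remaining targets had log2 differences between -0.21 and 0.06. Rhob, a small GTPase, read 8.92 to 9.61 in the Dusp8-deficient arrays and 9.16 to 9.60 in the controls (-0.19, SE 0.23). Bcl6, a transcriptional repressor, was high in 1 array of each group, 8.70 in ko_168 and 8.87 in wt_136, and between 7.80 and 8.14 in the others (-0.18, SE 0.30). Pdk4, which holds back the entry of pyruvate into the citric acid cycle, was lowest in ko_168 at 4.85 and wt_177 at 5.10, against 5.60 to 6.06 elsewhere (-0.07, SE 0.32).

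The tested probes of Hif3a, Arrdc2, Plin4 and Map3k6 had deposited signals of at most 27 units on any array. Hif3a, a hypoxia-inducible factor of the inhibitory kind, had the other tested probe without overlap. It read 4.79 to 4.98 in the Dusp8-deficient arrays and 4.99 to 5.23 in the controls. That difference was -0.21 (SE 0.18, unadjusted p = 0.272, adjusted p = 0.996, limma), and the gene's second tested probe read 0.03 (SE 0.21) with overlapping groups. A further Hif3a probe was detected in ko_108 and ko_125 (7 and 35 units) and in no control, and was not tested. Arrdc2, an arrestin family member, read -0.001 (SE 0.25), the lipid droplet protein Plin4 0.06 (SE 0.26), and the kinase Map3k6 -0.10 (SE 0.31), the last detected in 3 of 4 and 1 of 3 arrays.

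**Figure D4:**
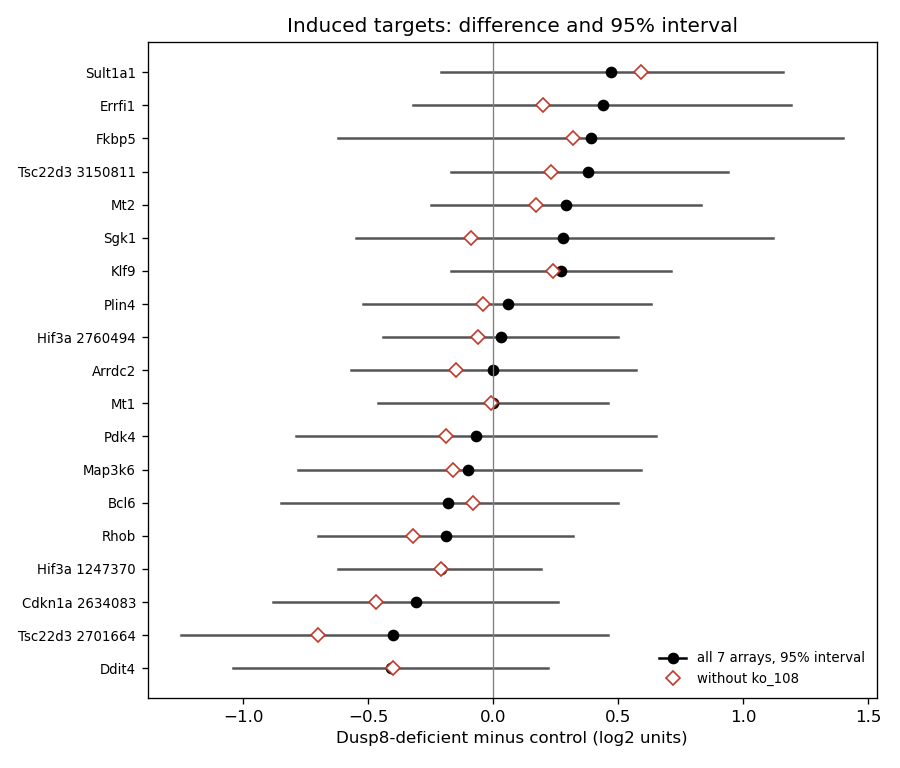
Log2 difference, Dusp8-deficient minus control, of the 19 tested probes of induced targets (black points) with their 95% intervals from limma (grey bars, 4 against 3 arrays) and the difference without ko_108 (open red diamonds). Every interval includes 0, and the diamond of Sgk1 lies at -0.09 where the difference over all arrays is 0.28.

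The targets varied between mice of the same genotype, and to different degrees. The within-group SD of Fkbp5 was larger than that of 97.3% of all tested probes, that of Sgk1 larger than 91.0%, and that of Errfi1 larger than 85.0%. For Klf9 the share was 11.2% and for Mt1 17.4%. The Sgk1 spread lay in 1 group: its SD was 0.78 in the Dusp8-deficient arrays, with ko_108 at 8.32, and 0.08 in the controls. These shares rank probes of every brightness together. Fkbp5, at 5 to 86 units, and Errfi1, at 4 to 41 units, were much dimmer than Klf9 and Mt1. The part of brightness in their ranks was not tested. Probes near background, such as those of Hif3a at 1.54% and 20.2%, have their spread compressed by the offset of 16, and their shares are not read as steadiness. A range over the 7 arrays of more than 1 log2 unit was found for 16 of the 27 probes of the system, against 46.4% of all tested probes. The mean deviation of the 17 tested targets was highest in ko_108, at 0.29 log2 units, where 8 of the 17 genes had their highest value, and lay between -0.20 and 0.06 in the other arrays. The oligodendrocyte markers were highest in that array too, and their part in the targets' values was not tested. The 13 tested genes of a further list of induced targets, given below, had their lowest mean in ko_108, at -0.10 log2 units. Of these, 4 had their highest value there. The share of all probes that were highest in ko_108 was not computed.

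Fkbp5 was compared with the 16 other tested targets over the 7 arrays, to see whether animals with a high Fkbp5 signal also had high signals of other targets. No relation passed after Benjamini-Hochberg adjustment over the 16, and 10 coefficients were positive and 6 negative, with a median r of 0.14. Over all other tested probes 50.1% of the coefficients with Fkbp5 were positive, with a median r of 0.0008. The closest was Errfi1, at r = 0.79 (exact permutation p = 0.0359, adjusted 0.575) and rho = 0.79 (exact permutation p = 0.0480, adjusted 0.768). Without the 2 arrays farthest from the Fkbp5 median, ko_125 and wt_145, r was 0.80, and on deviations from the group means it was 0.77. Of all other tested probes, 1.93% correlated with Fkbp5 at least as highly. Tsc22d3 on its brighter probe gave r = 0.54 (exact permutation p = 0.209, adjusted 0.898) and rho = 0.50 (exact permutation p = 0.267, adjusted 0.840), and r = 0.18 without those 2 arrays. For Sgk1 r was 0.26 (exact permutation p = 0.622, adjusted 0.905) and rho 0.23 (exact permutation p = 0.620, adjusted 0.840), and r = 0.33 without them. The labels give no batch within which these values could be computed again.

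**Figure D5:**
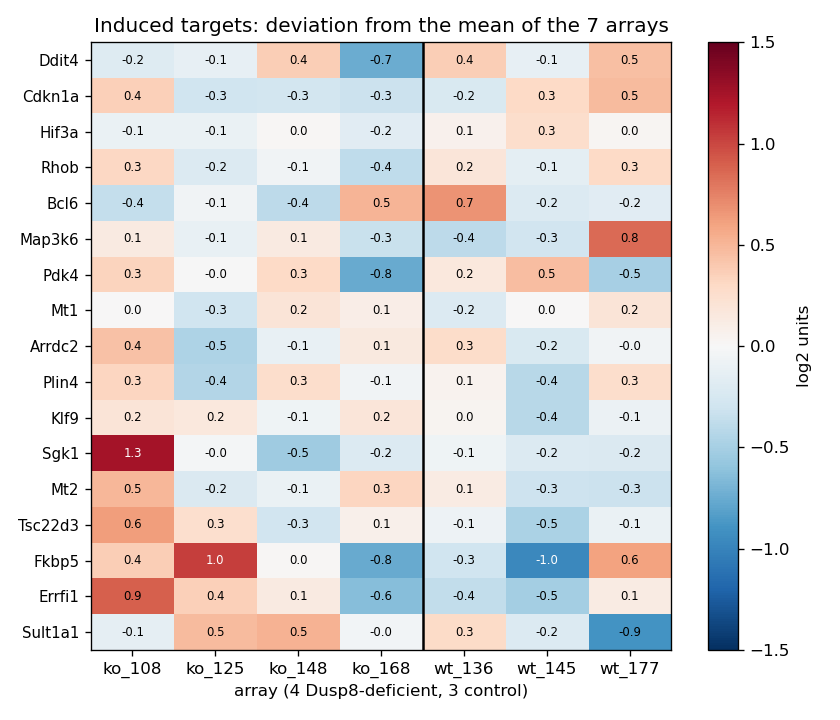
Deviation of each of the 17 tested target genes (rows) from its own mean over the 7 arrays (columns; the black line parts the 4 Dusp8-deficient from the 3 control arrays), in log2 units on a scale from blue (low) to red (high). The strongest single value is Sgk1 in ko_108, Fkbp5 is high in ko_125 and low in wt_145 and ko_168, and no row holds one colour throughout the Dusp8-deficient arrays and the opposite colour throughout the controls.

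Further genes of the pathway, 43 in 5 lists that share no gene with the 32, were counted beside them: 28 were tested, 12 were higher and 16 lower, and none passed. Among 8 tested chaperone genes of the receptor complex, 4 were higher and 4 lower (median 0.003), with Stip1, which bridges Hsp70 and Hsp90, at 0.63 (SE 0.29, unadjusted p = 0.0557), the Hsp90 co-chaperone Ptges3 at -0.31 and the Hsp70-interacting protein St13 at -0.19. Of 4 tested coregulators, 2 were higher, with Med1 of the Mediator complex at 0.55 (SE 0.38), the chromatin remodeller Smarca4 at 0.20 and the corepressor Nrip1 at -0.24. Without ko_108 Stip1 read 0.44, Med1 0.77 and Nrip1 0.03. Med1 read 0.19 without ko_125, and its other 3 probes read 0.11, -0.15 and -0.04. H6pd, which supplies the cofactor for the Hsd11b1 enzyme inside the endoplasmic reticulum, read -0.23 (SE 0.31) and was the only tested gene of 3 in its list.

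Pomc and Avp were the tested genes of 6 on the hormonal axis, at -0.64 (SE 0.41) and -0.55 (SE 1.13). Pomc, the precursor of adrenocorticotropic hormone, was measured here in arcuate tissue, not in the pituitary. It gave 5 to 19 units in Dusp8-deficient and 5 to 62 units in control arrays, and was detected in 3 of 4 and 2 of 3. Its log2 signal was 4.51, 4.48, 4.66 and 5.24 in the Dusp8-deficient arrays and 5.20, 4.46 and 6.44 in the controls. The Pomc difference was -0.10 without wt_177, the highest array. The Avp difference lay between -1.61 (without wt_145) and 0.39 (without ko_168). Avp, the partner of Crh in driving the pituitary, had the widest within-group spread of all 14067 tested probes. Of 13 tested further induced genes, 6 were higher and 7 lower, with a median of -0.04 log2 units. Pck1, the gluconeogenic enzyme, read 0.96 (SE 0.43, 95% interval -0.001 to 1.92), Lpin1, a phosphatidate phosphatase, -0.94 (SE 0.46) with its other probes at -0.05 and 0.20, and Dusp1, a phosphatase of the same family as Dusp8, 0.41 (SE 0.26). Without ko_108 Pck1 read 0.63, Lpin1 -0.80 and Dusp1 0.58, and Lpin1 read -0.58 without wt_136. Over all 7 arrays, each named gene of these lists had an adjusted p of 0.996 (limma).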

How the data were processed

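RNA of the arcuate nucleus of 7 mice was amplified and hybridised to Illumina bead arrays, per the labels' protocols. The deposited table holds an intensity per probe, not normalised, and beside it a detection p-value, per the file headers. Deposited intensities below 0 show that a background had been subtracted. Its columns name the group but not which sample, and the labels call the samples biological replicates. The authors' processed intensities, whose normalisation the sources used here leave undescribed, were put on a log2 scale and served only as an alternative.

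Intensities were normalised with limma 3.58.1 in R 4.3.3 (neqc: background by detection p, quantile, offset 16, log2). Probes entered the test if 3 or more of the 7 arrays detected them (detection p below 0.05). Groups were compared with lmFit and eBayes, adjusted by Benjamini-Hochberg over all 14067 tested probes at 0.05. The brightest tested probe stands for a gene in counts of genes. Correlations used all 5040 pairings, two-sided. Figures were drawn with matplotlib 3.10.9 in Python 3.11.15.

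Genes were named from the platform's annotation: 23978 probes have 1 symbol, 0 several and 1719 none. All probes of the 32 genes were kept. The members and gene lists were chosen with earlier results of these data known. The rule gave full values to receptors, cofactors, Crh genes, Fkbp5, Tsc22d3, Sgk1 and the 6 other targets of smallest p, and named up to 3 genes of each further list by smallest p.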

Additional observations from a re-analysis of the deposited data

Results flagged for a closer look

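The 27 tested probes of the 32 genes and the 12 named probes of the further pathway lists, 39 in all, were examined for a Dusp8-deficient array lying far from the other 3. The Dixon ratio was used as the rule. This picked out 4, where chance gives about 1.95 (1 in 20) if values are normally distributed. Cdkn1a read 4.98 log2 units in ko_108 against 4.30 to 4.35 in the others. Klf9 read 7.87 in ko_148 against 8.09 to 8.13. H6pd read 5.65 in ko_148 against 4.39 to 4.55, and Lpin1 read 6.10 in that array against 4.27 to 4.55. Cdkn1a was detected in 1 of the 4 Dusp8-deficient arrays, and H6pd and Lpin1 in 2 of 4 each. Their lower arrays gave 1 to 3, 3 to 10 and 0 to 10 units, close to background. The offset of 16 compresses the spread there, so the 1.95 is only a rough guide for these probes. The controls, with 3 arrays, were not examined in this way.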

How the results depend on the processing

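The 27 tested probes of the system were recomputed under 18 other settings, and none passed under any: of 480 values, 442 kept the sign and 38 did not, 22 of these with 1 array left out, and 17 probes never changed sign. The 10 that did had small differences. Some of the 480 values were repeats by design. Dropping the detection filter, requiring detection on every array and fitting an intensity trend left each main difference as it was. The replicate block likewise left the differences of the processed replicates 1 to 3 unchanged. The 442 kept signs therefore include repeated values and are not separate checks. Without normexp (floor of 1) Map3k6 read 0.56 and a Hif3a probe -0.001, and among probes that kept their sign Sult1a1 read 0.81, Fkbp5 0.79, Errfi1 0.70 and the brightest Hsd11b1 probe -0.63. An offset of 50 gave Arrdc2 at 0.01. Median scaling gave Arrdc2 at 0.01 and Mt1 at 0.02, and cyclic loess gave Mt1 at 0.01. Array weights gave that Hif3a probe at -0.09, Map3k6 at 0.11 and Mt1 at 0.09. The authors' deposited processed values gave Map3k6 at 0.01. Replicates 1 to 3 of these values gave -0.08 for the same Hif3a probe, 0.16 for Map3k6 and 0.18 for Pdk4, both with and without the replicate block. Leaving out 1 array at a time moved Arrdc2 from -0.15 to 0.15, Bcl6 from -0.37 to 0.11, that Hif3a probe from -0.06 to 0.11, Map3k6 from -0.32 to 0.30, Mt1 from -0.10 to 0.10, Ncoa1 from -0.38 to 0.04, Nr3c1 from -0.21 to 0.20, Pdk4 from -0.34 to 0.17, Plin4 from -0.14 to 0.21 and Sgk1 from -0.09 to 0.50. The median of receptor and enzyme ran from -0.48 to 0.03, that of chaperone and coactivators from -0.38 to -0.13, and that of the targets from -0.08 to 0.16. The cause was not tested. Over all probes, 1 call (Dusp8) became 2 without normexp (Snx9 and Sec23b, with Dusp8 at an adjusted p of 0.0962), 0 with no filter, 0 in the processed replicates 1 to 3 with or without the replicate block, and 0 to 1 with 1 array left out. The labels do not state that replicate numbers pair animals. Same-numbered deviations correlated at -0.06, 0.08 and -0.02, and those of different numbers at -0.08 to 0.08. With so few arrays these values cannot show whether the samples were paired. Leaving out each array was planned, while printing the values without ko_108 beside the others, and the correlation of Fkbp5 with the second Tsc22d3 probe (r = 0.15, exact permutation p = 0.744), were chosen after seeing the data. With 4 against 3 arrays, and dim signals for the Crh genes, Ncoa2, Cdkn1a and Hif3a, precision is limited.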
